A study of Zea mays with 9 samples.

Results

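Glutathione S-transferase (GST) genes were measured in the endosperm of 3 maize lines, with 6 of them, gst5, gst10, gst18, gst23, gst37 and gst42, at the centre of the account. These 6 were picked by name after their levels in the same comparisons had been seen, so their differences between lines are given as a description, with standard errors and no test. They are 6 of the 32 genes of the family that could be named on the array, and of 970 named genes in all. Each of the 6 was read by 1 probe set, whose short probes are combined into a single signal per array. The endosperm, where the kernel of maize (Zea mays) stores its starch, was taken 15 days after pollination from field-grown inbred lines. The ae wx line carries the names of amylose extender, a starch branching enzyme locus, and waxy, the granule-bound starch synthase locus. The sh1 line carries the name of shrunken1, a sucrose synthase locus, and B73 is the inbred whose genome is the maize reference. Each line has 3 Affymetrix arrays, 1 per RNA sample, which the labels call biological replicates. Whether they came from separate ears is not stated, so the spread between them may be partly technical. The labels give no alleles and no pedigree, so effects of the named loci and of the rest of each line's genome cannot be told apart.

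GSTs join the tripeptide glutathione to reactive or foreign compounds, and some also reduce organic peroxides with it. Plants hold large families of them, in which the plant-specific phi and tau classes are the most numerous, and in maize they are best known for detoxifying herbicides and for responding to safeners, compounds that protect the crop. Glutathione conjugates are then moved into the vacuole by ABC transporters of the multidrug resistance-associated (MRP) type.

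The arrays' median signals spanned 241.2 to 256. The level of control probe sets with no maize target, called the floor, spanned 51 to 71.6. Arrays of B73 differed more among themselves than the others: the median standard deviation of log2 signal was 0.07 in ae wx, 0.08 in sh1 and 0.18 in B73. Within sh1, replicates 2 and 3 were more alike (Pearson r = 0.998 over the probe sets analysed) than either was to replicate 1 (0.988 and 0.986). All 8 endosperm marker genes measured were above the floor on every array, with summed signals of 78846 to 83646 in ae wx, 67216 to 69425 in sh1 and 74303 to 82407 in B73. The 8 include the amylose extender and waxy loci themselves, and floury2. A floury2 probe set averaged 15681 in ae wx, 3873 in sh1 and 7282 in B73, so the sums need not follow the amount of endosperm. Markers of other kernel tissues also differed between lines. For 4 basal transfer layer genes, 3 of them above the floor on all arrays, the sums were 1549 to 4374 in ae wx, 1955 to 3644 in sh1 and 913 to 929.9 in B73. For 4 embryo and aleurone genes, of which 3 were above the floor throughout, they were 7367 to 7889 in ae wx, 8742 to 10394 in sh1 and 9761 to 13421 in B73. For 3 green tissue and pericarp genes, of which 2 were above the floor throughout, they were 305 to 324 in ae wx, 284 to 338 in sh1 and 453 to 1017 in B73. Signs of RNA quality differed too. The log2 difference between 3′ and 5′ probe sets of 4 housekeeping controls differed between ae wx and B73 by -0.34 (cyclophilin) to 0.40 (actin). Between sh1 and B73 it differed by -0.39 (cyclophilin) to 0.58 (GAPDH). It was above B73 in both mutant lines for actin, GAPDH and EF1a, and below B73 in both for cyclophilin. Between ae wx and sh1 it differed by -0.49 (GAPDH) to 0.22 (EF1a). The part of these tissues and of RNA quality in the results below was not tested, and in bulk tissue fewer cells of a type and less RNA per cell cannot be told apart. A difference in how well the probes match each line's own sequence cannot be told apart from a difference in RNA either.

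The 6 genes followed 3 patterns. Signals of gst5 and gst18 were higher in both mutant lines than in B73. Signals of gst10, gst23 and gst37 were higher in ae wx and lower in sh1 than in B73. The signal of gst42 was lower in ae wx and higher in sh1 than in B73. Arrays of ae wx and B73, and arrays of sh1 and B73, did not overlap for any of the 6. Between ae wx and sh1 they overlapped only for gst5. Over all probe sets, arrays did not overlap for 60.1% between ae wx and B73 (32.6% higher and 27.5% lower in ae wx), for 60.9% between sh1 and B73 (32.6% higher and 28.3% lower in sh1) and for 62.6% between ae wx and sh1 (31.1% higher and 31.5% lower in ae wx).

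**Figure D1:**
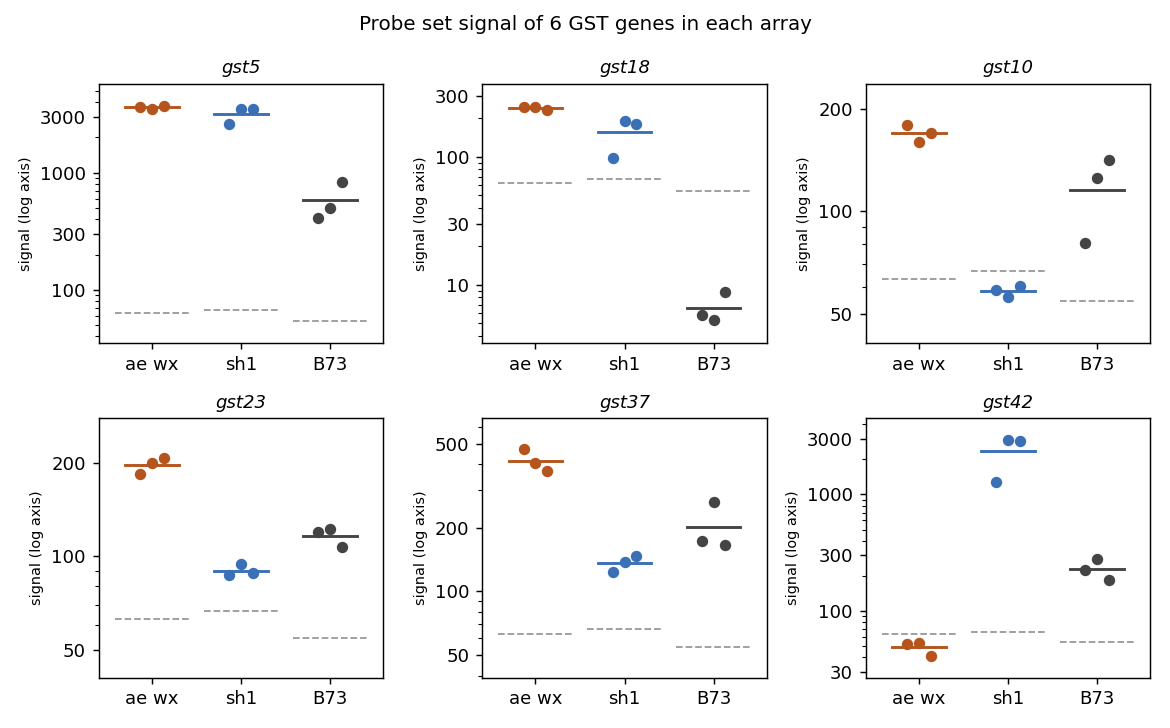
Signal of the 6 GST genes on each array (points, log axis, 1 panel per gene with its own scale), with ae wx, sh1 and B73 from left to right, line means as bars and the mean floor of each line as a dashed line. gst5 and gst18 are lowest in B73, gst10, gst23 and gst37 are lowest in sh1, and gst42 is lowest in ae wx, where all 3 arrays lie under the floor.

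gst5 read 3649, 3469 and 3718 in ae wx, 2579, 3458 and 3493 in sh1, and 413, 495 and 839 in B73. Every mutant array was above every B73 array. Line means were 3612 ± 129 in ae wx, 3177 ± 518 in sh1 and 582 ± 226 in B73 (SD, n = 3 each). Differences are given on the scale log2(signal + 16), which understates changes of dim probe sets. On it gst5 was 2.66 ± 0.22 (SE) higher in ae wx than in B73, or 6.34-fold, and 2.47 ± 0.22 higher in sh1 than in B73, or 5.53-fold. The mutant lines themselves were 0.20 ± 0.22 apart, within the spread of their arrays. Among the B73 arrays, replicate 3 stood 0.87 (log2) above the mean of the other 2 for gst5, outside the central 95% of all probe sets on that array (-0.77 to 0.67).

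The probe set of gst18 read 247, 246 and 234 in ae wx and 97.9, 190.2 and 180.03 in sh1. In B73 it read 5.82, 5.33 and 8.78, under the floor on all 3 arrays, so B73 has only a bound. Means were 242 ± 7.37 in ae wx, 156 ± 50.6 in sh1 and 6.64 ± 1.86 in B73. Against that bound, gst18 was at least 4.46-fold higher in ae wx than in B73 and at least 2.75-fold higher in sh1 than in B73. It was also 0.63 ± 0.19 higher in ae wx than in sh1, or 1.55-fold. With any 1 of the ae wx arrays left out this difference was 0.62 to 0.66. Without sh1 replicate 1 it was 0.36, and over all arrays left out in turn it ranged from 0.36 to 0.79. The lowest sh1 array, replicate 1, was 0.82 below the mean of the other 2 in gst18.

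gst37 is the first of the 3 genes that were highest in ae wx and lowest in sh1. Its signals were 472, 404 and 371 in ae wx, 124, 138 and 147 in sh1, and 173, 263 and 165 in B73. The sh1 arrays were all below the B73 arrays and the ae wx arrays all above them. Means were 416 ± 51.7 in ae wx, 136 ± 11.6 in sh1 and 201 ± 54.4 in B73. The ae wx line was 1.01 ± 0.16 above B73, or 2.02-fold, and 1.50 ± 0.16 above sh1, or 2.82-fold. The sh1 line was lower than B73 by a log2 difference of -0.48 ± 0.16. That last difference was -0.42 without sh1 replicate 1 and -0.49 without sh1 replicate 2. It was -0.29 without B73 replicate 2, the B73 array that stood 0.59 above the mean of the others.

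For gst23 the signals were 183, 199.99 and 208 in ae wx, 87.3, 94.2 and 88.4 in sh1, and 119.6, 123 and 107 in B73. No array of a line reached those of another. Means were 197 ± 12.5 in ae wx, 89.96 ± 3.73 in sh1 and 116 ± 8.28 in B73. It was 0.69 ± 0.08 higher in ae wx than in B73, or 1.61-fold, and 1.01 ± 0.08 higher in ae wx than in sh1, or 2.01-fold. Between sh1 and B73 the log2 difference was -0.32 ± 0.08, lower in sh1.

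For gst10, the third of these genes, the arrays read 179, 159.6 and 169.6 in ae wx, 58.9, 56.1 and 60.5 in sh1, and 80.7, 125 and 141 in B73. All 3 sh1 arrays lay under the floor, so sh1 has only a bound. Means were 169 ± 9.62 in ae wx, 58.5 ± 2.24 in sh1 and 116 ± 31.4 in B73. The ae wx line was 0.52 ± 0.16 above B73, or 1.44-fold, and at least 2.54-fold above sh1, while sh1 was at least 1.69-fold below B73. The ae wx difference from B73 was 0.48 without ae wx replicate 1 and 0.31 without B73 replicate 1.

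gst42 had the opposite pattern and read 52.6, 53.6 and 41.5 in ae wx, 1289.6, 2906 and 2885 in sh1, and 227, 282 and 186 in B73. All 3 ae wx arrays were under the floor and each sh1 array was above each B73 array. Means were 49.2 ± 6.69 in ae wx, 2360.1 ± 927 in sh1 and 232 ± 47.8 in B73. Its signal in sh1 was 3.19 ± 0.28 above B73, or 9.11-fold. In ae wx it was at least 3.62-fold below B73 and at least 35.1-fold below sh1. The sh1 arrays were not alike: replicate 1 lay 1.16 below the mean of the other 2, beyond the central 95% of all probe sets on that array (-0.55 to 0.39), and without it the log2 difference from B73 was 3.57. The same array was 0.43 below the others in gst5.

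In limma's fit over all probe sets, at an adjusted p under 0.05, 5 of the 6 genes were called higher and 1 lower in ae wx against B73, where 53.4% of the 12414 probe sets were called (29% higher and 24.3% lower). Between sh1 and B73, 3 were called higher and 3 lower in sh1, where 55.9% of all probe sets were called (30.4% higher and 25.4% lower). Between the mutant lines, 4 were called higher in ae wx, 1 lower and 1 was not called, where 36.6% of all probe sets were called (17.8% higher and 18.8% lower). Since the genes were picked from these comparisons, nothing is read from those counts. The median log2 difference over the 6 genes, with dim lines at their bound, was 0.85 for ae wx over B73, 0.57 for sh1 over B73 and 0.82 for ae wx over sh1, beside 0.04, 0.04 and 0.004 over all probe sets. These medians rest on the same choice of genes, so nothing is read from them either. In sh1, 3 of the genes lay above B73 and 3 below, so 0.57 is not the level of any of them. All 6 passed the filter on dim probe sets, which asked for enough signal on 3 of the 9 arrays: gst5 had it on 9 arrays, gst37 on 8, gst42 on 6, gst18 on 5, gst10 on 4 and gst23 on 3. gst10, gst18 and gst23 were therefore kept largely through the lines in which they were high, and such probe sets differ between lines by construction.

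**Figure D2:**
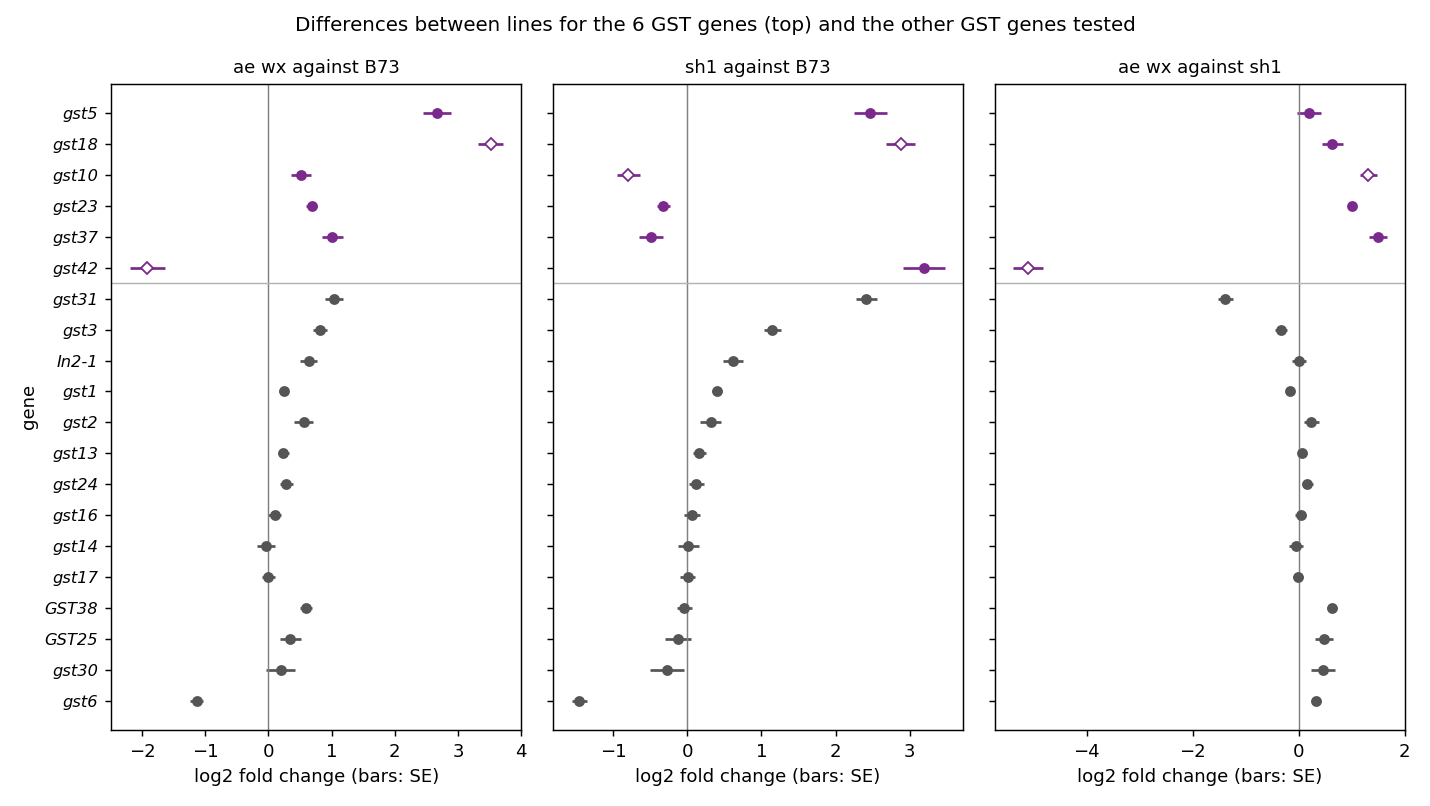
Log2 differences of the 6 GST genes (top) and the 14 other GST genes tested (scale log2(signal + 16), bars are SE) for ae wx over B73, sh1 over B73 and ae wx over sh1. Open diamonds mark comparisons with a line at or under the floor on all its arrays, where the fitted value is not a bound; gst42 reads 3.19 in sh1 against B73, and gst5 lies near 0 between the mutant lines.

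Over the 9 arrays, whose values share 3 line means, gst5 and gst18 ran together (Pearson r = 0.979, n = 9), as did gst23 and gst37 (r = 0.954), gst10 and gst37 (r = 0.884) and gst10 and gst23 (r = 0.867). gst42 ran against gst10 (r = -0.941), gst23 (r = -0.907) and gst37 (r = -0.861). The other pairs lay between -0.006 and 0.361. These are descriptions of 3 lines rather than independent relations. Among 740 named genes, the 3 whose signal tracked each gene most closely over the 9 arrays were isp1 (r = 0.991), the ribosomal protein gene RPS10 (0.990) and fdh1 (0.989) for gst5. For gst18 they were cdc2 (0.990), fdx3 (0.987) and CAF1 (0.984), and for gst10 cpi2 (0.979), psei1 (0.971) and nac4 (0.944). For gst23 they were PEAMT (0.979), hdr10 (0.967) and floury2 (0.963), and for gst37 m1 (0.988), PEAMT (0.961) and gst23 (0.954). For gst42 they were phb3 (0.972), GNAT19 (0.970) and the endoplasmic reticulum chaperone gene bip2 (0.965).

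Gene order in the reference annotation was read only for GST genes with a gst number among their names. Any other GST gene, such as In2-1, counts here as another gene. On this reading gst42 and gst37 belong to a run of 6 GST genes, in the order gst42, gst32, gst37, GST39, GST38 and gst30, with 4 other genes between them in all. gst10 ends a run of 3 with gst11 and gst12, with 1 other gene between. gst5, gst18 and gst23 have no GST gene so named within 10 genes. Within the run of 6, 4 genes were bright enough to test, and they differed in pattern: gst42 was lowest in ae wx, whereas gst37 was highest there. GST38, which also was highest in ae wx, had 300 ± 24 in ae wx, 187.5 ± 12.6 in sh1 and 193 ± 19.1 in B73. gst30 averaged 1297 ± 8.2 in ae wx, 952 ± 217 in sh1 and 1175 ± 371 in B73, and none of its 3 comparisons was called. Cross-hybridisation between near copies was not tested.

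**Figure D3:**
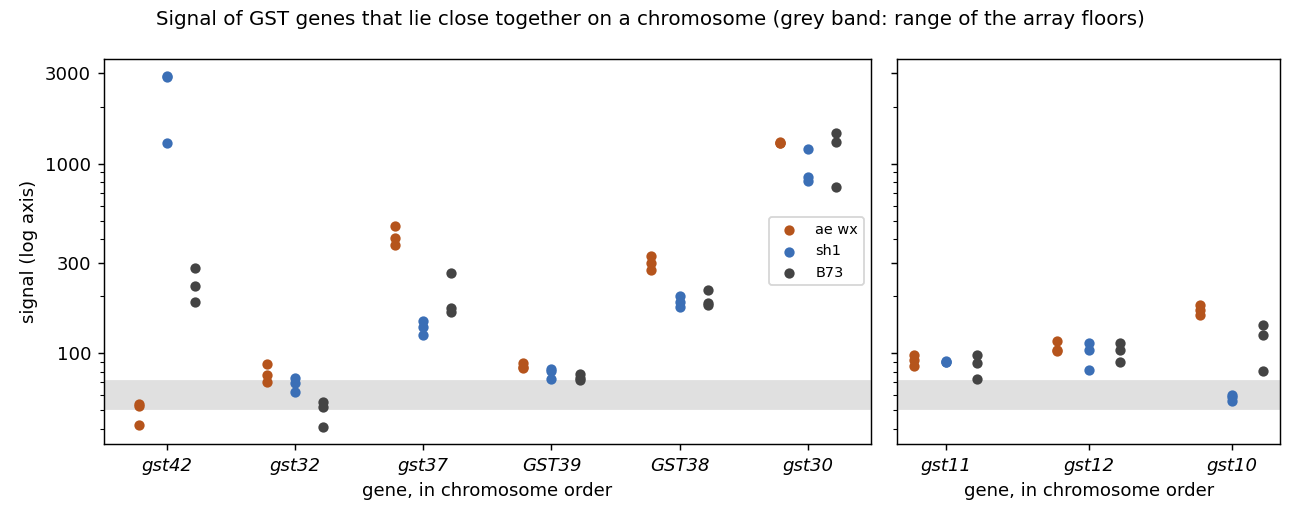
Signal (log axis) of the GST genes in the run with gst42 and gst37 and in the run with gst10, in chromosome order. Each array is a point, with ae wx, sh1 and B73 from left to right, and a grey band gives the range of the array floors (51 to 71.6). Runs of other GST genes are not shown. Of the 3 lines, ae wx is lowest for gst42 and highest for gst37 and GST38, while ae wx and B73 arrays overlap for gst30; levels of different genes are not comparable.

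The other genes of the family are those left after the 6 had been picked with these comparisons known, so their counts are not independent of that choice. Of 26 other GST genes, 12 were too dim to test, with line means of 49.3 to 119.8, and 14 were tested. Against B73, 8 of the 14 rose and 1 fell in ae wx, a share of 64.3% beside 53.4% of all probe sets, with a median log2 difference of 0.27 beside 0.04. Without ae wx replicate 1, 5 rose and 1 fell, where 5535 of the 12414 probe sets were called. With quantile normalization or median centring of the arrays, 6 rose and 1 fell. For sh1 against B73, 4 rose and 1 fell (35.7% beside 55.9%), with a median of 0.09. Between the mutant lines, GST38 and gst6 were higher in ae wx and gst31 lower (21.4% beside 36.6%), with a median of 0.05. That count of 3 was 7 without B73 replicate 1 and 5 without B73 replicate 3. Changes of at least 2-fold numbered 2 of 14 in ae wx against B73, beside 12.9% of all probe sets. They numbered 3 of 14 in sh1 against B73, beside 14.3%, and 1 of 14 in ae wx against sh1, beside 8.34%. Nothing is read from counts this small. In ae wx against B73, gst31 was among them at 1.03 on its brightest probe set, but gave 0.51 as the mean of its probe sets.

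gst31 had the largest change of the rest of the family. It averaged 1793 ± 301 in ae wx, 4663 ± 414 in sh1 and 864 ± 113 in B73 on its brightest probe set. It rose in sh1 against B73 by 2.41 ± 0.14 (adjusted p = 4.73e-07, limma), and its signal in ae wx was 1.03 ± 0.14 above B73 (adjusted p = 1.92e-04) and fell by 1.38 ± 0.14 against sh1 (adjusted p = 4.24e-05). Its other 3 probe sets rose in sh1 against B73 by 1.64 to 1.72, but in ae wx against B73 only 1 of them was called (0.75), and the others gave 0.11 (adjusted p = 0.507) and 0.14 (adjusted p = 0.403). The mean of its probe sets was 0.51 above B73 in ae wx. gst31 lies 16 genes past gst10 in the annotation, outside its run. The high sh1 signal of gst31 was not lowered on sh1 replicate 1, which stood 0.20 above the mean of the others there.

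gst3, whose gene carries the synonym gst4, averaged 1312 ± 40.1 in ae wx, 1648 ± 22.8 in sh1 and 744 ± 128 in B73. It rose in ae wx against B73 by 0.82 ± 0.12 (adjusted p = 2.53e-04) and in sh1 against B73 by 1.14 ± 0.12 (adjusted p = 2.41e-05). gst6 was the only one of the 14 that fell in both mutant lines against B73, with 296 ± 35.1 in ae wx, 232 ± 18.8 in sh1 and 665 ± 24.5 in B73. Its log2 differences were -1.13 ± 0.10 in ae wx (adjusted p = 1.21e-05) and -1.46 ± 0.10 in sh1 (adjusted p = 1.79e-06). It was also 0.33 ± 0.10 higher in ae wx than in sh1 (adjusted p = 0.0299), a call that was lost without ae wx replicate 1 or 3 or without sh1 replicate 2 or 3 (0.26 to 0.30).

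GST38 rose in ae wx against B73 by 0.60 ± 0.10 (adjusted p = 6.02e-04) and against sh1 by 0.63 ± 0.10 (adjusted p = 6.38e-04), while in sh1 against B73 it gave -0.04 (adjusted p = 0.765). In2-1, a gene induced by safeners in maize, averaged 173 ± 11.5 in ae wx, 171.5 ± 24.6 in sh1 and 106 ± 19.6 in B73. It rose by 0.64 ± 0.13 in ae wx (adjusted p = 0.00277) and by 0.62 ± 0.13 in sh1 (adjusted p = 0.00303), and the mutant lines gave 0.02 between them. The other 4 genes that rose in ae wx against B73, gst1, gst2, gst13 and gst24, named after their values were seen, changed by 0.24 to 0.56. Of these, gst13 was close to the threshold (adjusted p = 0.0472). The ae wx and B73 arrays of gst24 overlapped, and it had enough signal for the filter on only 3 arrays. The other gene that rose in sh1 against B73 was gst1, by 0.41 (adjusted p = 8.24e-04). At the other end, gst14, gst16 and gst17, also named after their values were seen, lay within 0.10 of B73 in each mutant line, with gst17 at 671 in ae wx, 677 in sh1 and 676 in B73.

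**Figure D4:**
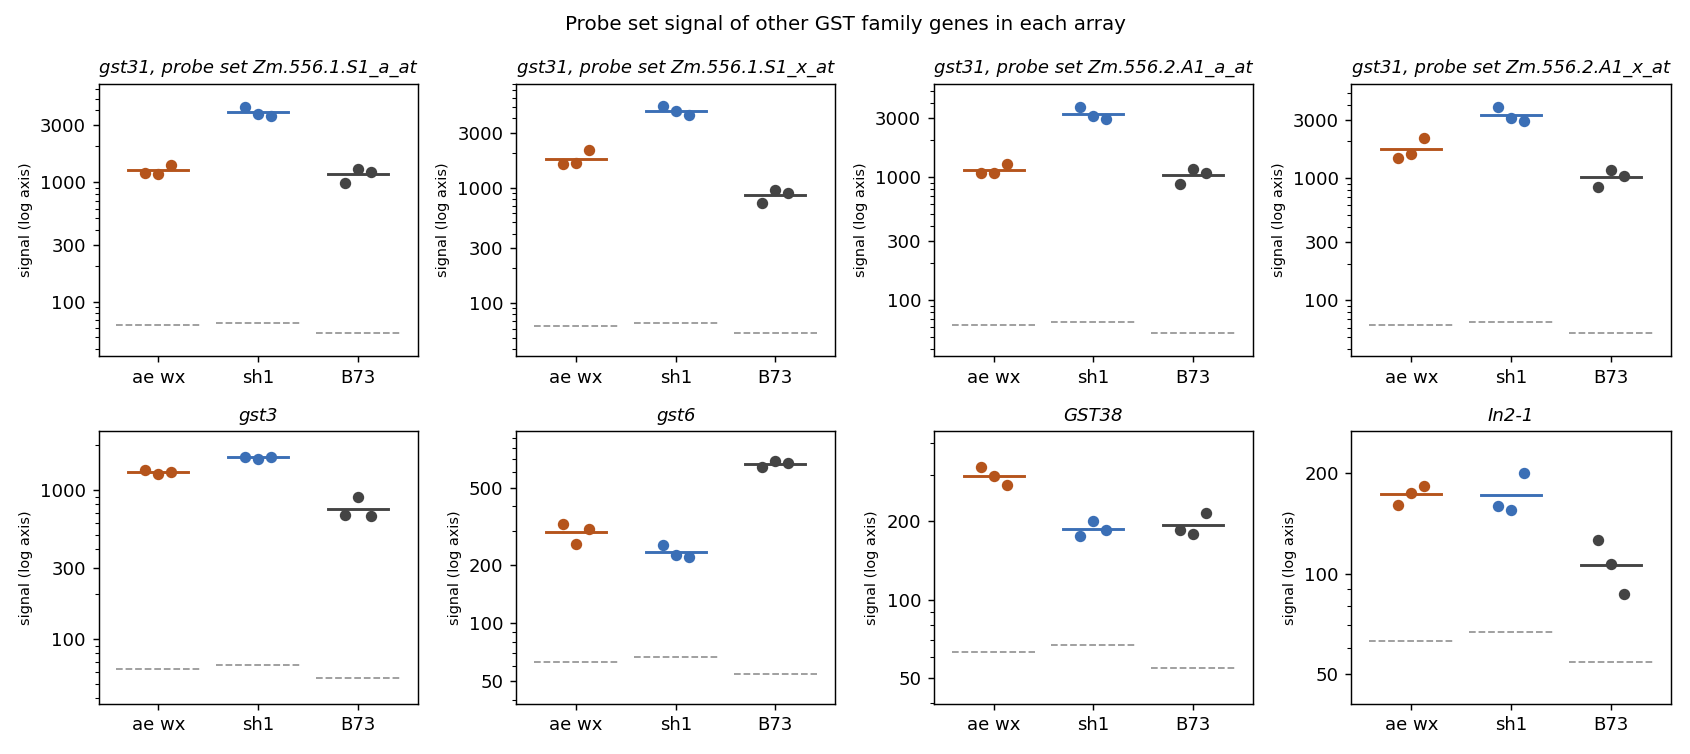
Signal (log axis) of the named GST genes outside the 6, with 4 panels for the probe sets of gst31, arrays as points, line means as bars and mean floors as dashed lines for ae wx, sh1 and B73 from left to right. gst31 is highest in sh1 on each probe set and gst6 highest in B73 (665).

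Of 7 genes that make, reduce or use glutathione outside the GST family, 3 glutathione reductase genes (GR1a, GR2b and GR2c) were too dim to test. Of the 4 tested, 1 was called in each comparison with B73 (25%, beside 53.4% of all probe sets for ae wx and 55.9% for sh1). This was fdh1, which encodes a glutathione-dependent formaldehyde dehydrogenase. It rose by 1.62 ± 0.09 in ae wx (adjusted p = 5.43e-07) and by 1.45 ± 0.09 in sh1 (adjusted p = 1.08e-06). The other 3, gsh1 and gsh2, which encode the 2 enzymes of glutathione synthesis, and glx1, a glyoxalase gene, were not called in any comparison. For gsh1 the line means were 1413 in ae wx, 1439 in sh1 and 1371 in B73, a log2 difference of 0.05 in ae wx and 0.07 in sh1.

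A further list held 10 genes: 7 of catalases, an ascorbate peroxidase and superoxide dismutases, which act on peroxide or superoxide, and 3 of alternative oxidases, mitochondrial enzymes that reduce oxygen to water. Of these, 8 were tested. Compared with B73, 2 rose and 3 fell in ae wx (62.5% beside 53.4% of all probe sets), and 5 rose and 3 fell in sh1 (beside 55.9%). Compared with sh1 (50% beside 36.6%), 4 fell in ae wx and 0 rose in limma's fit (0 also at an unadjusted p under 0.05). Of those that fell, aox2 and cat2 passed the filter largely through sh1. Sod4A, a superoxide dismutase gene, averaged 132 ± 10.1 in ae wx, 1079 ± 101 in sh1 and 742 ± 83.7 in B73. It fell by 2.35 ± 0.11 in ae wx against B73 (adjusted p = 1.04e-07) and by 2.88 ± 0.11 against sh1 (adjusted p = 4.13e-08), and rose by 0.53 ± 0.11 in sh1 against B73 (adjusted p = 0.00238). Its lowest line, ae wx, is also that of gst42.

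CAT3, a catalase gene, fell against B73, with log2 differences of -1.26 ± 0.16 in ae wx (adjusted p = 1.44e-04) and -1.23 ± 0.16 in sh1 (adjusted p = 1.53e-04). cat2, another catalase gene, read 524, 255 and 259 in sh1, and averaged 70.5 ± 5.4 in ae wx, 346 ± 154 in sh1 and 108 ± 28.1 in B73. It rose by 1.49 ± 0.25 in sh1 against B73 (adjusted p = 7.56e-04) and fell by 1.99 ± 0.25 in ae wx against sh1 (adjusted p = 2.05e-04), while ae wx against B73 gave -0.50 ± 0.25 (adjusted p = 0.123). aox2, an alternative oxidase gene, was under the floor on all arrays of ae wx and B73 and read 215, 674 and 720.3 in sh1. It was at least 8.66-fold higher in sh1 than in B73 and at least 7.47-fold lower in ae wx than in sh1. aox2 had enough signal for the filter on 3 arrays, those of sh1, and cat2 and CAT3 each on 4. All were kept largely through the line in which they were high, so their calls follow in part from the filter. The lowest sh1 array of aox2 was replicate 1, the array that also was lowest for gst42, gst18 and gst5.

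**Figure D5:**
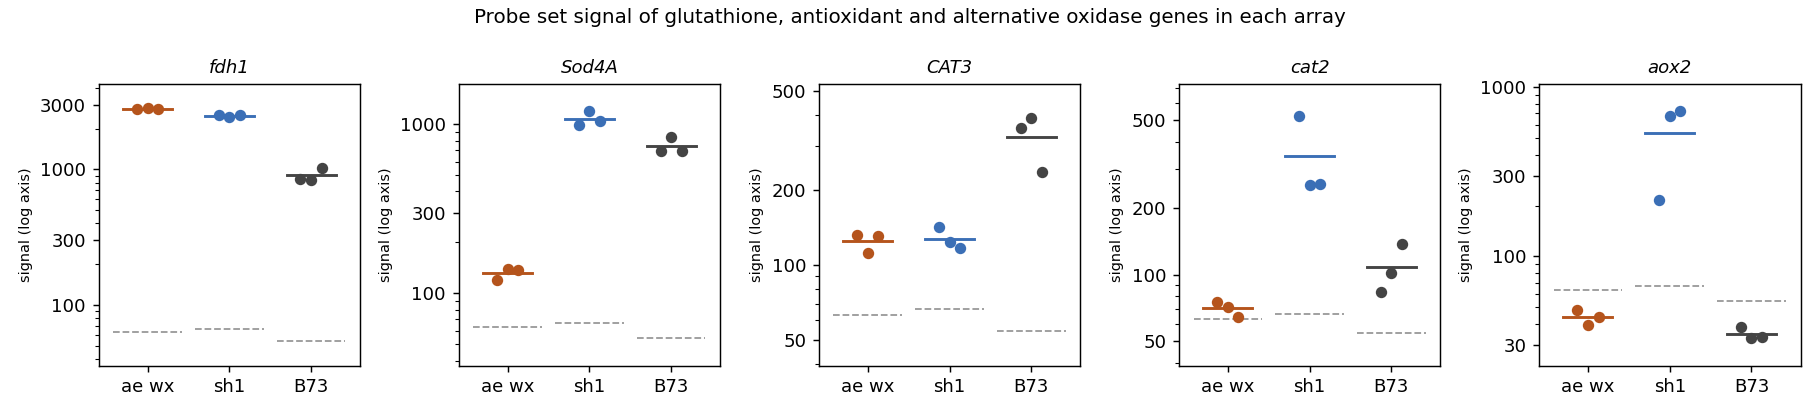
Signal (log axis) of the named glutathione, antioxidant and alternative oxidase genes, with arrays as points, line means as bars and mean floors as dashed lines for ae wx, sh1 and B73 from left to right. fdh1 is lowest in B73, Sod4A is lowest in ae wx (132), and cat2 and aox2 stand highest in sh1.

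Of the 3 MRP-type transporter genes named on the array, all described after their values were seen, MRP2 was dim on all ae wx arrays on its brighter probe set, at least 9.87-fold lower in ae wx than in B73 and at least 2.61-fold lower in ae wx than in sh1. Its signal in sh1 fell by 1.82 ± 0.09 against B73 (adjusted p = 1.78e-07). The other MRP2 probe set differed: it was above the floor on all arrays, lower than B73 by log2 differences of -0.90 ± 0.18 in ae wx (adjusted p = 0.00216) and -0.74 ± 0.18 in sh1 (adjusted p = 0.00601), and its arrays overlapped between ae wx and sh1 (-0.16, adjusted p = 0.535). mrpa1 was above the floor on all arrays of sh1 only, with 169 ± 33.8 there, and was at least 3.06-fold higher in sh1 than in B73. It had enough signal for the filter on 3 arrays, those of sh1, so this difference follows in part from the filter. The transporter gene MRP4 was not called in any comparison.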

How the data were processed

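The deposited values are the authors' intensities, linear and 1 for each probe set on each array (signal). GCOS 1.4 is named in the submitters' processing notes without a role, and the summary algorithm is not given in the sources used here. Of 17734 probe sets, 113 controls were left out. Names came from the platform's Entrez identifiers matched to RefSeq genes (assembly Zm-B73-REFERENCE-NAM-5.0; 1377 matched), used for names and for gene order only. A probe set was kept if on 3 or more of 9 arrays it reached 20% of that array's 2% trimmed mean, a level of 124.7 to 136.8. This kept 12414 and removed 5207. The fit used log2(signal + 16) in limma 3.58.1 (R 4.3.3), with 1 mean per line over all 9 arrays, an intensity trend, two-sided tests and Benjamini-Hochberg adjustment over all probe sets kept. All adjusted p-values are limma's, standard deviations are of signal, and a gene with several probe sets was read from the one of highest mean log2 signal. Plots were made with Python 3.11.15 and matplotlib 3.10.9.

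The floor of each array was the 95th percentile of 6 tryptophan control probe sets. The rule as written also admitted the lysine controls, whose median (224) lay under that of all probe sets (248), but they followed the spiked dap controls across arrays (r = 0.975, against -0.0499 for tryptophan) and were not used. A line under the floor on all 3 arrays has a bound, from the higher of floor and signal on each array. The member genes, the lists and the tests were chosen with earlier results of these data known, and the lists were completed from the annotation's names (the glutathione reductases and MRP2 were added, and prx1 and INO1, which share a symbol with a list gene, were left out). The rule for named genes took the 6 members, up to 4 called genes of the rest of the family and 3 of the glutathione, antioxidant and alternative oxidase genes with the largest change per comparison, and the 3 genes most alike to each member; other names were chosen after values were seen. Replicate numbers did not pair the samples: same-numbered arrays of 2 lines had deviations that correlated between -0.231 and 0.136. No 2 arrays held identical values. The number of arrays limits the precision. Alternatives were other pseudocounts, scalings, filters, probe set rules and fits, and leaving out each array.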

Additional observations from a re-analysis of the deposited data

Results flagged for a closer look

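For gst10, gst23, gst37 and gst42 every array of ae wx lay on the opposite side of all B73 arrays from every array of sh1. The share of all probe sets with this arrangement was not counted, so nothing is read from it. The difference between the 2 effects, ae wx minus sh1, was 1.31 (log2) for gst10, 1.01 for gst23, 1.50 for gst37 and -5.10 for gst42. These differences were not tested, since the genes were picked from them, and for gst10 and gst42, with a line under the floor, the fitted value is no bound.

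By limma's test of ae wx against sh1, the 2 effects also differed for 6 of the other genes that the naming rule took. Among the rest of the GST family the differences were 0.63 for GST38, -1.38 for gst31 and 0.33 for gst6. Outside the family they were -2.88 for Sod4A, -1.99 for cat2 and -3.03 for aox2, where ae wx and B73 were under the floor and the fitted value is no bound. aox2 and cat2 passed the filter largely through sh1, so their differences follow in part from it. Genes that the naming rule did not take were called too, among them sod2. It was lower in ae wx than in sh1 on its brighter probe set (-0.88), with -0.07 and no call on the other.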

How the results depend on the processing

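Without the filter on dim probe sets, 8 of 26 other GST genes were called in sh1 against B73, where 8256 of 17621 probe sets were called. With the filter it was 5 of 14, where 6939 of 12414 probe sets were called. In ae wx against sh1, 7 of 14 were called with only those lines in the fit, where 6731 of 12414 probe sets were called. In the main fit it was 3 of 14, where 4544 probe sets were called. Leaving out each array gave 2 to 7 (7 without B73 replicate 1 and 5 without B73 replicate 3), and 3331 to 5635 probe sets called. The direction of 2 small differences turned: In2-1 in ae wx against sh1 was -0.045 to 0.12 over the arrays left out (-0.024 without ae wx replicate 3, -0.028 without sh1 replicate 1 and -0.045 without sh1 replicate 2), and GST38 in sh1 against B73 was -0.084 to 0.037 (0.0053 without sh1 replicate 1 and 0.037 without B73 replicate 3). The cause was not tested. For gst18 in ae wx against sh1 the difference was 0.69 with log2(signal + 1). For gst37 in sh1 against B73 it was -0.51 with sh1 replicates 2 and 3 averaged. The call of gst6 in ae wx against sh1 was lost in several fits (0.30 with sh1 replicates 2 and 3 averaged). With those 2 sh1 arrays averaged, 3392 probe sets were called between ae wx and sh1, beside 4544 in the main fit. With the replicate number as a block, which does not pair these samples, 6205 probe sets and 7 other GST genes were called between ae wx and B73, 6476 and 5 between sh1 and B73, and 4020 and 3 between the mutant lines. Signal near the floor limits what can be said of gst10, gst18 and gst42 in the lines where they were dim, and of the 12 GST genes that were not tested.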
